A study of Rattus norvegicus with 14 samples.

Results

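Pdgfra, Cspg4, Olig1, Olig2, Sox10, Gpr17, Bcas1, Enpp6, Tcf7l2 and Myrf are 10 genes that mark successive steps in the life of an oligodendrocyte, the cell that wraps axons of the brain in myelin. They were taken by gene name from tables that compare groups of rats in pairs, and all 10 were present in each table, among 17905 genes in any table and 16871 in all 3. The tissue was the caudal perirhinal cortex, a temporal area on which recognition of individual objects depends, of male Lister Hooded rats weighing 350 to 450 g. Group Familiar (5 rats) had explored one set of objects throughout training and met it again at test. A second group (5 rats), labelled with the opposite of familiar and called the new-object group here, met new objects in early sessions, the same objects in other combinations later, and unseen objects at test. Group Control (4 rats) had no training or test session and shared with the trained groups the restricted diet and the handling. Tissue from the trained rats was taken 1 h after the test, and the animals sequenced were selected in part by how they explored in it, so the 2 trained groups stand for rats with a chosen behaviour. The trained rats were caged in pairs, 1 from each group, and the tables do not show which rats were cage mates. No genetic change or drug was part of the design.

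Oligodendrocytes arise from dividing precursor cells that persist throughout the adult cortex and carry the receptor PDGFRα and the proteoglycan NG2 at their surface. A precursor that leaves the cell cycle passes through a short committed stage, in which GPR17, BCAS1 and ENPP6 appear, and then either dies or becomes a myelinating cell under the control of MYRF. The factors OLIG1, OLIG2 and SOX10 are present from precursor to mature cell. New oligodendrocytes formed from precursors have been tied to learning in adult rodents, which is the reason to set the stages side by side after recognition training.

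For every gene, each table listed the ratio of the group means and the p value that the authors obtained for it with edgeR, and 0 columns held a value per rat. The level of each gene in each animal, the depth of each library and the spread between rats were therefore not analysed here. Ratios were converted to log2 fold changes, for which 0 means equal expression. The error of a log2 fold change was worked back from the fold change and its p as if the test had been normal, and gave the 95% intervals below. It was not derived where p exceeded 0.8. Values are those with 4 sources of unwanted variation removed by RUVSeq (k = 4) unless another setting is named. A gene was called where the unadjusted p was under 0.01 and the change was at least 25%, that is a fold change of at least 1.25 or at most 0.8. Adjusted p values are Benjamini-Hochberg values over all genes of a table.

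In none of the 3 comparisons did any of the 10 genes pass these thresholds. For the new-object group over Control, 0 of 10 genes were called by the authors' edgeR test, where 2.66% of all genes were. Olig1 and Pdgfra had an unadjusted p under 0.05, that is 2 of 10 genes against 10.1% of all genes, and they lay on opposite sides of 0. No gene had an adjusted p under 0.05, which 0.869% of all genes had. The 10 log2 fold changes ran from -0.26 for Myrf to 0.17 for Pdgfra, with 6 below 0 and a median of -0.11, beside a median of -0.0092 over all 17257 genes.

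For Familiar over Control, 0 of 10 genes were called by the authors' edgeR test, where 3.72% of all genes were. Olig1 was the 1 gene with an unadjusted p under 0.05, against 11.9% of all genes, and 0 had an adjusted p under 0.05, against 1.97%. The log2 fold changes ran from -0.21 for Olig1 to 0.29 for Tcf7l2, with 7 below 0 and a median of -0.084, beside 0.00032 over all 17521 genes. This comparison and the one before it share the 4 Control rats, so a like value in both is not a second observation of it.

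For Familiar over the new-object group, the comparison of the 2 trained groups, 0 of 10 genes were called by the authors' edgeR test, where 2.5% of all genes were. None had an unadjusted p under 0.05, which 9.59% of all genes had, and none an adjusted p under 0.05, which 0.407% had. Values ran from -0.16 for Gpr17 to 0.14 for Cspg4, with 5 above and 5 below 0 and a median of 0.020, beside 0.012 over all 17461 genes.

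**Figure D1:**
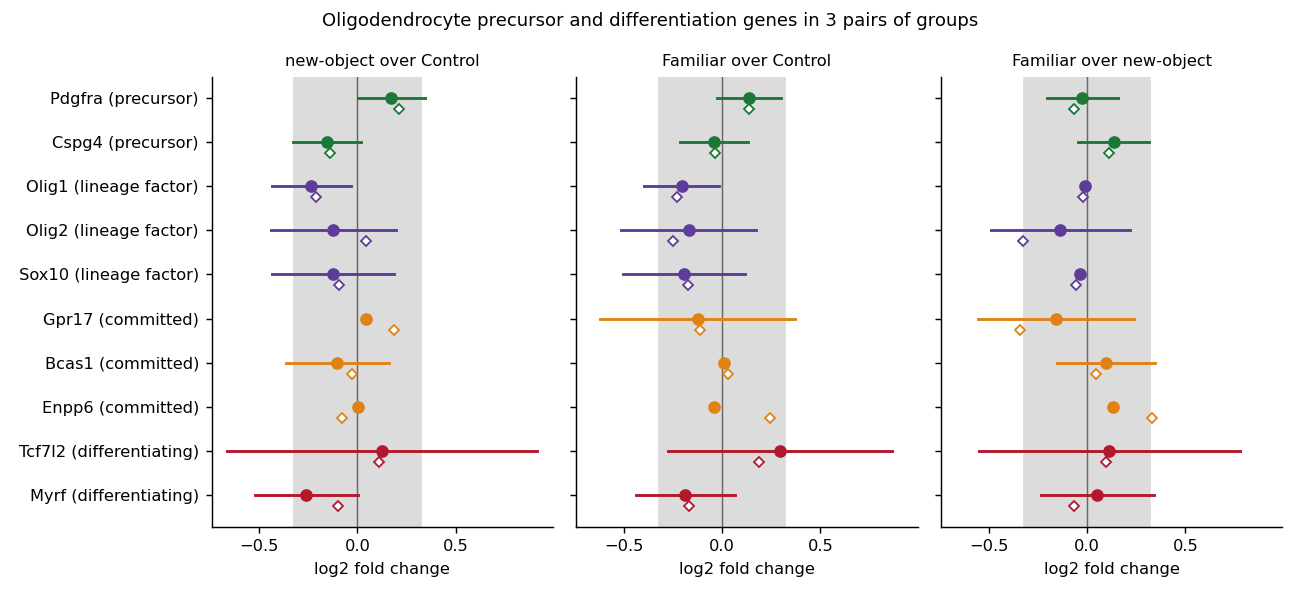
Log2 fold change (x axis) of each of the 10 genes (y axis, with its stage) in the 3 pairs of groups. Filled circles are values at k = 4 with 95% intervals where p allowed one, open diamonds are values after upper quartile normalization alone, and the grey band spans a fold change of 0.8 to 1.25. All circles lie inside the band, and 2 of the intervals in the left panel (Pdgfra and Olig1) and 1 in the middle panel (Olig1) miss 0.

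The precursor stage was read from a surface receptor and a surface proteoglycan. Pdgfra (ENSRNOG00000002244), the receptor through which the growth factor PDGF-A keeps precursors dividing, stood 12.8% above Control in the new-object group. Its log2 fold change was 0.17 (95% interval 0.0013 to 0.35), with the authors' unadjusted p of 0.0483 and an adjusted p of 0.485. The value in Familiar over Control was 0.13 (95% interval -0.028 to 0.30, adjusted p = 0.545), and between the trained groups -0.024 (95% interval -0.20 to 0.16, adjusted p = 1). The interval for the trained groups lay within the 25% band on both sides. Both trained groups were thus on the higher side of Control for this receptor, by less than 25% and without passing the test.

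Cspg4 (ENSRNOG00000017208) encodes the NG2 proteoglycan, which gives precursors their other name of NG2 cells. Its level in the new-object group was 10.2% below Control (log2 fold change -0.15, 95% interval -0.33 to 0.019, adjusted p = 0.573). Its log2 fold change in Familiar over Control was -0.043 (95% interval -0.22 to 0.13, adjusted p = 0.965), and in Familiar over the new-object group 0.14 (95% interval -0.044 to 0.32, adjusted p = 0.700). The 2 precursor markers thus had values of opposite sign in every comparison, and their difference was not tested because the tables hold no values per rat.

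Both precursor markers are also made outside the lineage: NG2 by pericytes, the contractile cells of small vessels, and PDGFRα by fibroblasts of the meninges and large vessels. Among 10 pericyte genes, 8 were below 0 in the new-object group over Control, around a median of -0.24, and all 10 were above 0 in Familiar over the new-object group, with a median of 0.23. Called among them were Notch3 (-0.33) and Abcc9 (-0.47) in the first of these comparisons and Vtn (0.46) in the second, that is 2 and 1 of 10 genes beside 2.66% and 2.5% of all genes. Without RUVSeq and at k = 1 no pericyte gene was called by the authors' edgeR test in either comparison, with 1 or 2 at an unadjusted p under 0.05, and without RUVSeq 7 of 10 were above 0 in the second. Cspg4 had the sign of the pericyte median in all 3 comparisons, since that median was -0.032 in Familiar over Control. Fibroblast genes, 21 identifiers under 20 names, had a median of 0.11 in the new-object group over Control, with 16 above 0 and 1 called (Igf2, 0.48). Against Control, Familiar had a median of 0.43, and the 10 called were all higher: Col1a1, Col1a2, Col3a1, Col6a3, Foxc1, Igf2, Igfbp2, Islr, Ptgds and Slc22a6, at 0.38 to 0.87, beside 3.72% of all genes called. This count of fibroblast genes was 0 without RUVSeq (7 at an unadjusted p under 0.05 in the authors' edgeR test), 1 at k = 1, 2 at k = 2 and 6 at k = 3, while the median stayed between 0.41 and 0.44. The share of all genes called in that comparison moved in the same direction, from 0.993% without RUVSeq to 1.6%, 2.65% and 3.17% at k = 1, 2 and 3. In Familiar over the new-object group the median was 0.23, with Slc13a4 (0.44), Foxc1 (0.70) and Col6a3 (0.55) called, and 0 called without RUVSeq, where 1 had an unadjusted p under 0.05 in the authors' edgeR test. The fibroblast median in the new-object group over Control depended on the normalization as well and was 0.34 without RUVSeq. Pdgfra had the sign of the fibroblast median in both comparisons with Control and the opposite sign between the trained groups. The part of pericytes and fibroblasts in the values of Cspg4 and Pdgfra was not tested.

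The 3 transcription factors of the whole lineage were all below 0 in all 3 comparisons at k = 4. Olig1 (ENSRNOG00000028648), a basic helix-loop-helix factor needed for precursors to mature and for myelin repair, stood 15.0% below Control in the new-object group. Its log2 fold change was -0.23 (95% interval -0.43 to -0.035), with the authors' unadjusted p of 0.0214 and an adjusted p of 0.357. Familiar was 13.4% below Control, with a log2 fold change of -0.21 (95% interval -0.40 to -0.014), the authors' unadjusted p of 0.0352 and an adjusted p of 0.359. Between the trained groups the log2 fold change was -0.0099, with the authors' unadjusted p of 0.949. Olig1 was the gene of the 10 with the smallest p in both comparisons with Control, and it passed neither the p threshold of 0.01 nor the 25% threshold in either.

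Olig2 (ENSRNOG00000028658), the factor that specifies the lineage, stands beside Olig1 in the rat genome, with 0 protein-coding genes between them in the RefSeq annotation of a later assembly. Its log2 fold change was -0.12 in the new-object group over Control (95% interval -0.44 to 0.20, adjusted p = 0.930) and -0.17 in Familiar over Control (95% interval -0.52 to 0.17, adjusted p = 0.813). Between the trained groups it was -0.14 (95% interval -0.49 to 0.22, adjusted p = 0.926). Without RUVSeq the value in the new-object group over Control was 0.045 and the value in Familiar over the new-object group was -0.33, so the sign of the first depended on the normalization.

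Sox10 (ENSRNOG00000011305), an HMG-box factor that binds the control regions of many myelin genes, stood at -0.12 in the new-object group over Control (95% interval -0.43 to 0.19, adjusted p = 0.921). It was -0.19 in Familiar over Control (95% interval -0.51 to 0.12, adjusted p = 0.724) and -0.035 between the trained groups, with the authors' unadjusted p of 0.875. Intervals of both Olig2 and Sox10 reached past the 25% band in both comparisons with Control, so these values neither showed a decrease of that size nor were precise enough to leave it outside the interval.

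The committed stage showed no common direction. Gpr17 (ENSRNOG00000025745), a receptor that holds committed cells back from maturing, stood at 0.042 in the new-object group over Control, with the authors' unadjusted p of 0.913. In Familiar over Control it was -0.12 (95% interval -0.62 to 0.37, adjusted p = 0.962), and in Familiar over the new-object group -0.16 (95% interval -0.56 to 0.24, adjusted p = 0.916). Without RUVSeq the first of these values was 0.18 and the last -0.34. Bcas1 (ENSRNOG00000012906), a cytoplasmic protein of early myelinating cells, stood at -0.10 in the new-object group over Control (95% interval -0.36 to 0.16, adjusted p = 0.930). Its values were 0.0067 in Familiar over Control, with the authors' unadjusted p of 0.962, and 0.096 between the trained groups (95% interval -0.15 to 0.34, adjusted p = 0.928).

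Enpp6 (ENSRNOG00000009660), a choline phosphodiesterase seen in newly forming oligodendrocytes, could not be resolved in these tables. Its authors' unadjusted p was 1 in all 3 comparisons at k = 4, beside log2 fold changes of 0.0057, -0.042 and 0.13 in the order used above. After upper quartile normalization alone these values were -0.077, 0.24 and 0.33, the last a 25.5% higher level in Familiar than in the new-object group, with the authors' unadjusted p of 0.832. A p this high beside a change of that size leaves no usable error for Enpp6. The reads behind each gene, which would show how far low counts limit it, were not analysed here.

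Of the differentiating stage, Tcf7l2 (ENSRNOG00000049232), an effector of Wnt signalling that marks cells at the start of maturation, had the largest errors of the genes with one, and the highest log2 fold change of the 10 in Familiar over Control. Its level in Familiar was 22.6% above Control, a log2 fold change of 0.29 (95% interval -0.28 to 0.87, adjusted p = 0.806). That was the highest of 5 settings, the others running from 0.18 at k = 1 to 0.28 at k = 3, with 0.19 without RUVSeq. In the new-object group over Control it was 0.13 (95% interval -0.66 to 0.92, adjusted p = 1) and between the trained groups 0.11 (95% interval -0.55 to 0.78, adjusted p = 1). Tcf7l2 is also made by neurons of the thalamus, and 8 thalamic neuron genes, none called, had medians of 0.039, 0.12 and 0.12 in the same order, whose part in its values was not tested.

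Myrf (ENSRNOG00000028274), the membrane-bound factor that switches on myelin genes and without which new oligodendrocytes do not mature, had the lowest log2 fold change of the 10 genes in the new-object group over Control. It was 16.4% below Control, a log2 fold change of -0.26 (95% interval -0.52 to 0.0011), with the authors' unadjusted p of 0.0509 and an adjusted p of 0.497. Familiar was 12.3% below Control, a log2 fold change of -0.19 (95% interval -0.44 to 0.063, adjusted p = 0.616). Between the trained groups the value was 0.051 (95% interval -0.24 to 0.34, adjusted p = 1). Myrf and Tcf7l2 thus lay on opposite sides of 0 in both comparisons with Control. At k = 4 the lineage factors were the only stage whose genes all lay on the same side in those comparisons, which did not hold for the new-object group over Control without RUVSeq, where Olig2 was at 0.045, or at k = 1, where Tcf7l2 was at -0.043 and so below 0 like Myrf.

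The errors of the 10 genes differed widely, which set what the tests could have called. Pdgfra and Cspg4 had small errors, 0.083 to 0.092 on the log2 scale, between the 12.8th and the 17.8th percentile of all genes that had an error. For these genes a fold change of 1.16 to 1.18 was enough for a p of 0.01, so that the 25% threshold and not the error was the stricter one. Tcf7l2 had errors of 0.29 to 0.40, between the 70.4th and the 79.9th percentile of the same genes, and needed a fold change of 1.68 to 2.05. The error was the stricter limit for 5 of 8 genes in each comparison with Control and for 5 of 7 between the trained groups. The interval lay wholly inside the 25% band for 0 genes in the new-object group over Control, 2 in Familiar over Control and 2 between the trained groups. For the other genes with an error the interval reached past the band, and a missed threshold does not show equal expression.

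**Figure D2:**
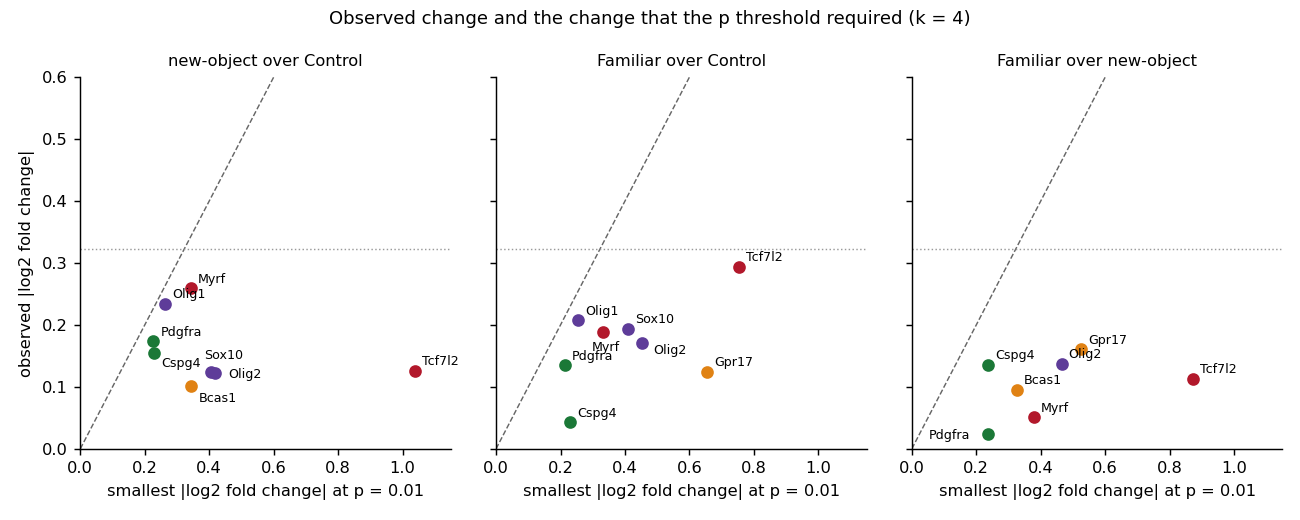
Absolute log2 fold change observed at k = 4 (y axis) against the smallest absolute log2 fold change that would have given a p of 0.01 at the gene's own error (x axis), for the 8, 8 and 7 genes with an error in the 3 pairs of groups. A gene is called only above both the dashed diagonal and the dotted line at a 25% increase; every point lies below both, with Olig1 nearest the diagonal in the left and middle panels and Tcf7l2 farthest to the right in all 3.

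Enpp6 was the gene that the normalization moved most in Familiar over Control and between the trained groups. Over the 5 settings of the tables with Control (upper quartile alone and k = 1 to 4), 7 of 10 genes kept their sign in the new-object group over Control and 9 of 10 in Familiar over Control. Over the 6 settings of the direct comparison of trained groups, which also holds k = 5, 8 of 10 did. Pdgfra, Cspg4, Olig1, Sox10, Gpr17 and Bcas1 kept theirs in all 3. Olig1 ranged from -0.24 to -0.21 in the new-object group over Control and from -0.23 to -0.21 in Familiar over Control, with authors' unadjusted p values of up to 0.185 and 0.125. Its value was thus nearly the same at every k while its p was not. Pdgfra ranged from 0.16 to 0.21 and from 0.13 to 0.14 in these comparisons. Myrf ranged from -0.26 to -0.098 in the new-object group over Control and was lowest at k = 4. Without RUVSeq the median error of the genes with one was 0.20 in both comparisons with Control and 0.24 between the trained groups, and at k = 4 it was 0.13, 0.14 and 0.15.

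**Figure D3:**
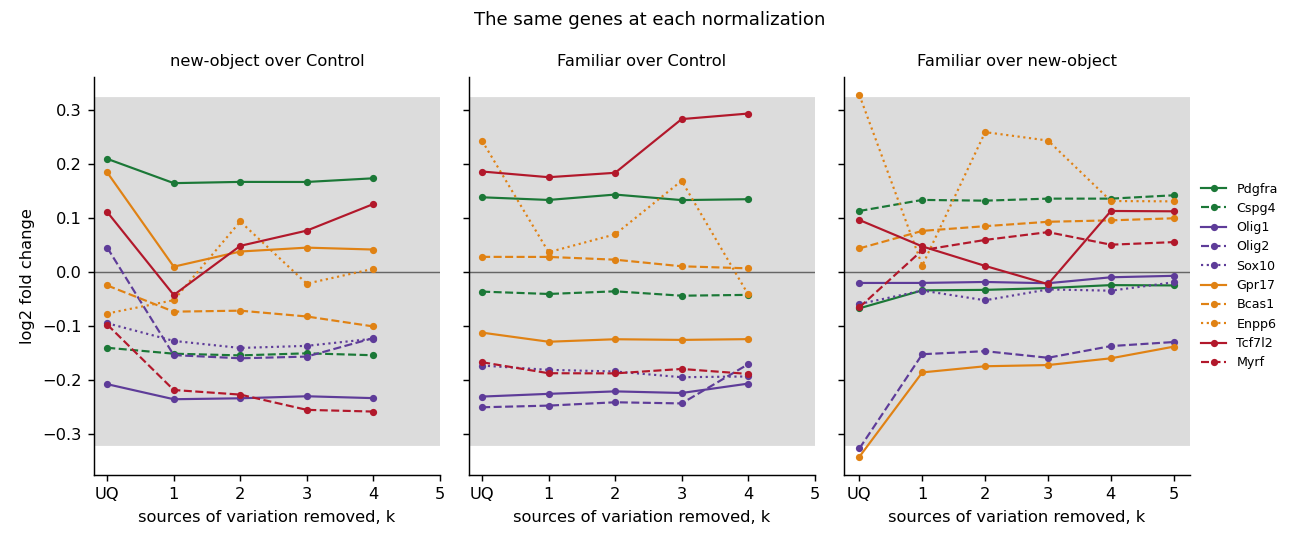
Log2 fold change (y axis) of the 10 genes after upper quartile normalization alone (UQ) and with k = 1 to 5 sources of variation removed (x axis), 1 line per gene coloured by stage, in the 3 pairs of groups. The lines of Pdgfra, Cspg4 and Olig1 are nearly flat, whereas Enpp6 crosses 0 in the left and middle panels, and Olig2 and Gpr17 move up from -0.33 and -0.34 in the right panel once 1 source is removed.

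The direct comparison of the trained groups can be set against the difference of their comparisons with Control. Without RUVSeq these differed by a median of 0.0092 on the log2 scale over the 10 genes and by at most 0.046, beside a median of 0.0090 over the 16871 shared genes. At k = 4, where sources of variation were estimated for each pair of groups apart, the median gap was 0.030 and the largest 0.18, for Enpp6, beside 0.034 over all shared genes. The sign differed for Olig1 (0.027 by difference) and Enpp6 (-0.047 by difference).

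Genes of myelin and mature oligodendrocytes, the step after the 10 genes, had more calls. In the new-object group over Control, 7 of the 21 measured were called and all 7 were lower, against 1.57% of all genes called lower, and the median was -0.35. An adjusted p under 0.05 was held by 3 of the 21, beside 0.869% of all genes. Among the called genes were Mbp (-0.56, adjusted p = 0.00190), which encodes a main protein of compact myelin, Mobp (-0.56), Mag (-0.34), Cnp (-0.32), Cldn11 (-0.32) and Hapln2 (-0.85). For Familiar over Control 7 were called, of which 6 were lower, against 1.89% of all genes, with a median of -0.32. Among these were Mbp (-0.50), Mal (-0.51), Ugt8 (-0.50), Tspan2 (-0.55) and Cnp (-0.37). Aspa, an enzyme that frees acetate for lipid synthesis, was higher by 1.19 (adjusted p = 0.0143). In Familiar over Control 6 of the 21 had an adjusted p under 0.05, beside 1.97% of all genes. Between the trained groups 0 of 21 were called by the authors' edgeR test, with 2 at an unadjusted p under 0.05, beside 2.5% and 9.59% of all genes, and the median was 0.018.

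Mbp had a decrease of more than 25% in both trained groups. Of the transcription factors among the 10 genes, Olig1, Olig2, Sox10 and Myrf stood 8.16% to 16.4% below Control in these groups. Tcf7l2 stood 9.12% above Control in the new-object group and 22.6% above it in Familiar, and none of these factors passed the test. Whether the mature genes differed more than the earlier ones was not tested, as it would need values per rat. Without RUVSeq the mature genes had 0 calls in the new-object group over Control and 4 in Familiar over Control, 3 of them lower, with medians of -0.27 and -0.37. Calls over all genes were fewer at that setting too, at 0.782% and 0.993%, of which the lower ones made up 0.377% and 0.451% of all genes. In the same comparisons at k = 4, 9 and 8 of 10 astrocyte genes and 16 and 18 of 21 fibroblast identifiers were above 0, and their part in the myelin values was not tested. In whole tissue, fewer oligodendrocytes and less RNA in each cannot be told apart.

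**Figure D4:**
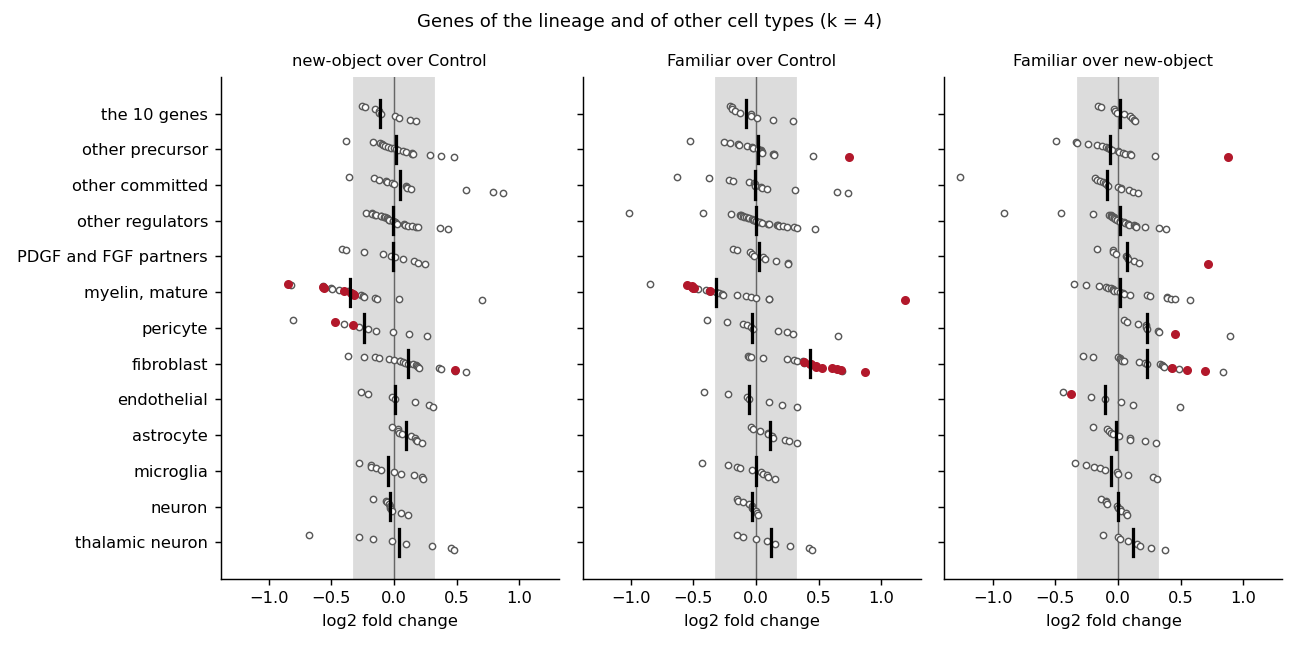
Log2 fold change at k = 4 (x axis) of the genes in each list (y axis) in the 3 pairs of groups, 1 point per gene. Red points were called, open points were not, black bars are medians and the grey band spans a fold change of 0.8 to 1.25. The row of the 10 genes has no red point, whereas myelin genes have 7 in each comparison with Control and fibroblast genes have 10 in Familiar over Control.

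Other genes of the precursor and differentiation steps were called at shares near or below those of all genes. Of 78 named genes outside the 10, 72 were measured in each table, and 0, 1 and 2 were called in the 3 comparisons in the order used above, which is 0%, 1.39% and 2.78% of the list beside 2.66%, 3.72% and 2.5% of all genes. Their medians were 0.0012, -0.00073 and -0.0076. Other precursor genes (19 measured of 20, among them proteoglycans and receptors of the precursor surface) had medians of 0.018, 0.013 and -0.063. The call among them was Smoc1, which encodes a secreted calcium-binding matrix protein. It was higher in Familiar than in Control by 0.74 (adjusted p = 0.0111) and higher than in the new-object group by 0.88 (adjusted p = 0.0214), while its value in the new-object group over Control was -0.071. Without RUVSeq these 3 values were 0.88, 0.84 and 0.067, each with an adjusted p of 0.957 or more. The call of Smoc1 in Familiar over Control held there, and the call in Familiar over the new-object group did not, with the authors' unadjusted p of 0.0116.

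Other committed or newly formed oligodendrocyte genes (14 of 16 measured) had 0 calls in any comparison by the authors' edgeR test, beside 2.66%, 3.72% and 2.5% of all genes. In that test 0, 0 and 1 of 14 had an unadjusted p under 0.05, beside 10.1%, 11.9% and 9.59% of all genes. Their medians were 0.047, -0.0071 and -0.085. Nkx2-2, a homeodomain factor of committed cells that was singled out here after its values were seen, had the widest swing: 0.87 in the new-object group over Control, -0.63 in Familiar over Control and -1.26 between the trained groups (adjusted p = 0.430 for the last). Other regulators of differentiation (29 of 31 measured, among them Notch, Wnt and neuregulin genes and chromatin factors) had 0 calls by the same test, with 1, 6 and 4 of 29 at an unadjusted p under 0.05 beside 10.1%, 11.9% and 9.59% of all genes, and medians of -0.0095, 0.0028 and 0.013.

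The ligands of PDGFRα, with the other PDGF and FGF partners of precursor growth (10 of 11 measured), had 1 call, in Familiar over the new-object group, where 2.5% of all genes were called. Pdgfa, which encodes the ligand that drives precursor division, was at 0.16 in the new-object group over Control (adjusted p = 0.693), 0.25 in Familiar over Control (adjusted p = 0.244) and 0.17 between the trained groups (adjusted p = 0.714). Pdgfd, a ligand of the related receptor PDGFRβ, was higher in Familiar than in the new-object group by 0.72, past both thresholds but with an adjusted p of 0.245. The call was absent without RUVSeq (0.83, the authors' unadjusted p of 0.0291) and at k = 1 and 2. Pdgfd stood at -0.42 in the new-object group over Control (adjusted p = 0.694) and at 0.25 in Familiar over Control (adjusted p = 0.817).

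Of the other cell types, astrocyte, microglia, neuron and thalamic neuron genes (10, 10, 10 and 8 measured) had 0 calls in any comparison. Of all genes 2.66%, 3.72% and 2.5% were called, so 0 calls in lists this short is close to those shares. Among the listed genes, 1 to 4 in each astrocyte comparison, 2 in each microglia comparison, 0 to 2 in each neuron comparison and 0 or 1 in each thalamic comparison had an unadjusted p under 0.05 in the authors' edgeR test. Against Control, 3 and 4 of 10 astrocyte genes did so in the new-object group and in Familiar, above the 10.1% and 11.9% of all genes, and without RUVSeq these counts were 1 and 0. The medians ran from -0.014 to 0.11 for astrocyte genes and from -0.056 to 0.0036 for microglia. For neurons they ran from -0.030 to -0.0027. An adjusted p under 0.05 at a change below 25% was held by 1 astrocyte gene in each comparison with Control and by 1 neuron gene in Familiar over Control. Endothelial genes (7 of 10 measured) had 1 call, Slco1a4, at -0.37 in Familiar over the new-object group, beside 2.5% of all genes, and 0 without RUVSeq and at k = 1 and 2 by the authors' edgeR test. At k = 4, 2, 2 and 3 of the 7 had an unadjusted p under 0.05 in the 3 comparisons, above the 10.1%, 11.9% and 9.59% of all genes. Without RUVSeq these counts of endothelial genes were 1, 1 and 2. All 10 neuron genes were in every table, but without levels the tissue could not be checked further against its markers.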

How the data were processed

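RNA from 14 rats (5, 5 and 4 per group) was sequenced on an Ion Proton after ribosomal RNA depletion. The authors aligned reads to Rnor_6.0 with TopHat and Bowtie2, counted unique reads of quality 10 or more with HTSeq and dropped genes with a mean count below 1 in any group. The deposited tables hold the authors' linear fold change (a ratio) and unadjusted p-value from their pairwise edgeR tests, after upper quartile normalization alone or with RUVSeq at k = 1 to 4 (5 for the trained groups). They hold 0 columns per sample, so the depth of a sample or behind a value could not be taken from them. Upper quartile scaling sets each gene relative to the others, and sources estimated by RUVSeq can hold part of a group difference, so both values depend on k. Computed here were log2 values, Benjamini-Hochberg values, errors from each fold change and p, medians and counts. The code for the errors was run on data simulated with the same normal formula. That run cannot show how well the formula fits the authors' edgeR test. All 10 genes, called genes of the lists and Pdgfa were named, and Nkx2-2 was added after its values were seen. The result of 1 called gene is not reported here. Genes and lists were chosen with earlier results of these data known. RefSeq positions belong to another assembly, so no coordinates or sequences are given. Tools were pandas 2.3.3, scipy 1.17.1, numpy 2.4.6, matplotlib 3.10.9 and Python 3.11.15.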

Additional observations from a re-analysis of the deposited data

Results flagged for a closer look

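The 10 genes and all genes of the lists above, named or not, were searched for a difference between the trained groups. A pair had an adjusted p under 0.05 over all genes of that table, which 0.407% of all genes had. Smoc1 was higher in Familiar than in the new-object group by 0.88 on the log2 scale (adjusted p = 0.0214), and Foxc1, a transcription factor of meningeal fibroblasts, by 0.70 (adjusted p = 0.0214). Against Control, the log2 fold changes of Foxc1 were 0.48 in Familiar and -0.15 in the new-object group. Without RUVSeq the differences between the trained groups were 0.84 for Smoc1 and 0.71 for Foxc1, each with an adjusted p of 1 and neither past the p threshold of 0.01. None of the 10 precursor and differentiation genes was among them.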

How the results depend on the processing

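The count of called genes among the 10 was 0 in all 3 comparisons at every k, without RUVSeq and when an adjusted p under 0.05 replaced both thresholds. Over these settings 0.493% to 3.72% of all genes were called, and at k = 4 0.407% to 1.97% had an adjusted p under 0.05. A count of 0 of 10 is close to such shares. With an unadjusted p under 0.05 and no minimum change the count was 2 in the new-object group over Control, 1 in Familiar over Control and 0 between the trained groups. The shares of all genes there were 10.1%, 11.9% and 9.59%. Of 140 values of single genes under an alternative, 127 kept their direction. No value with a p was called, and the differences of the comparisons with Control have no p to call by. The other 13 had the opposite sign, and the cause was not tested. In the new-object group over Control these were Olig2 without RUVSeq (0.045), Enpp6 without RUVSeq (-0.077), at k = 1 (-0.052) and at k = 3 (-0.022), and Tcf7l2 at k = 1 (-0.043). In Familiar over Control they were Enpp6 without RUVSeq (0.24), at k = 1 (0.037), k = 2 (0.070) and k = 3 (0.17). Between the trained groups they were Myrf without RUVSeq (-0.066), Tcf7l2 at k = 3 (-0.023) and, by difference of the comparisons with Control, Olig1 (0.027) and Enpp6 (-0.047). The median of the 10 genes stayed between -0.11 and -0.051 in the new-object group over Control and between -0.085 and -0.075 in Familiar over Control, and ran from -0.040 without RUVSeq to 0.024 between the trained groups. No paired analysis was possible because the tables hold no values per rat, so the shared cages of the trained groups could not enter a test, and for the same reason leaving out each rat was not run. Errors rest on a normal approximation to the authors' test, and the tables do not give the depth behind a gene.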
